A study of Homo sapiens with 23 samples.

Results

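The data set out here are the genes whose RNA level in BAP1 knockout HCT116 cells lay beyond both unedited states of the same line. A gene was taken as a member when both BAP1 KO libraries were above, or both below, all 4 unedited libraries in CPM (its read count scaled to a library total of 1000000). A gene was set aside when only the control group stood out, that is, when BAP1 KO was nearer to WT than control was on the mean log2(CPM + 1). Of 28105 genes in the tables, 16368 had enough reads to be tested, and 5579 of these were members (34.1%), 3455 above (21.1%) and 2124 below (13%). A further 496 tested genes were outside all 4 libraries but were set aside, 308 above and 188 below. The mirror case, where BAP1 KO was nearer to control than WT was, was not set aside. It held for 1099 of the members above and 774 of those below. Without the filter on low counts there were 6102 members. Membership was read from these libraries, so its count is a description.

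HCT116 is a human colorectal cancer line, grown in McCoy's 5A medium with 10% FBS. The 6 libraries of poly(A)-selected RNA form 3 groups of 2: WT and control, both with the genotype WT, and BAP1 KO, with the genotype BAP1 KO. The names of the deposited tables place control and BAP1 KO in HCT116 osTir1F74G, a name that the WT tables do not carry, and the labels do not say how control differs from WT otherwise. The 2 BAP1 KO tables carry different numbers, and neither these numbers nor the labels say whether the replicates are separate clones or separate cultures, so p-values measure only the spread between these libraries. The series also holds 2 libraries of a knockout of MLL4, a histone H3K4 methyltransferase, used here only for levels beside those of the members, and 15 ChIP-seq samples, which are not analysed here.

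The BAP1 protein takes ubiquitin off histone H2A in the nucleus, as the enzyme of the PR-DUB complex, where ASXL proteins are its partners. Polycomb repressive complex 1 places this ubiquitin, and Polycomb complexes keep developmental genes such as the HOX genes silent. BAP1 is known as a tumour suppressor in mesothelial, renal and uveal cells.

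The epithelial identity of the line was visible in all 6 libraries. Of 10 markers of a colorectal epithelial line, 9 reached 1 CPM, and their sum ran from 3262 to 6292 CPM. Among fibroblast markers only COL1A1 reached 1 CPM, and DCN, LUM and PDGFRA had no reads. Leukocyte markers reached 1 CPM in 1 of 8 genes, CD68, and endothelial markers in 1 of 7, KDR. Of 6 neural markers 4 did, with MAP2 the highest, at 6.09 to 9.67 CPM in WT, 16.6 to 17.4 in control and 2.79 to 3.06 in BAP1 KO. Gene counts per library ran from 24.8 to 40.6, in units of 1000000 reads. Control replicates were the closest, with a median absolute log2 difference of 0.09 per gene, against 0.18 in BAP1 KO and 0.28 in WT. The first principal component (51.1% of the variance) set both WT libraries, at -52.5 and -94.7, apart from the rest. The control and BAP1 KO libraries lay between 32.5 and 43.7 on it. Without WT replicate 1 there were 6180 members, and without WT replicate 2 there were 5737. The rule is looser with fewer libraries, so these counts do not measure the spread within WT.

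BAP1 RNA itself did not set the knockout apart. The gene (chromosome 3, 52401008 to 52410008, GRCh38.p14) was at 80.9 and 87.9 CPM in WT, 53.6 and 59.7 in control, and 70.2 and 57.3 in BAP1 KO. The BAP1 KO libraries overlapped the range of the unedited ones, and the log2 fold change against the mean of WT and control was -0.20 ± 0.12 (SE, adjusted p = 0.227, edgeR quasi-likelihood test). A count over a whole transcript does not show whether its coding sequence was altered, so this level does not check the labels, and BAP1 KO stands here for the 2 libraries labelled so. It passed the test without WT replicate 1 (-0.26, adjusted p = 0.0488).

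Against the mean of WT and control, 4897 of 16368 genes passed an adjusted p of 0.05 (29.9%), 2515 higher (15.4%) and 2382 lower (14.6%). Of the members, 2013 above and 1593 below passed. WT and control themselves differed in 6606 genes (40.4%, with 20.2% higher and 20.2% lower in control), more than the 3825 that separated BAP1 KO from control (23.4%) and close to the 7019 that separated it from WT (42.9%). The stricter reading used below, a difference from WT and from control in the same direction, each passing on its own, held for 1721 genes (10.5%), 851 higher (5.2%) and 870 lower (5.32%). Another 596 genes were called against WT and against control in opposite directions.

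Large falls outnumbered large rises. Among members beyond both states, 280 above and 329 below differed at least 2-fold from each of WT and control. At least 4-fold were 66 and 131 of them, and at least 8-fold 21 and 68. Over all genes tested, members or not, 288 higher (1.76%) and 347 lower (2.12%) were beyond both and at least 2-fold from each. The excess of small rises over small falls among members depended on the scaling: with TMM-scaled CPM the split was 2867 above to 2687 below, with the deposited RPKM 3117 to 2409. The number beyond both rested on every library: it was 538 without BAP1 KO replicate 1, 947 without BAP1 KO replicate 2, 514 and 500 without control replicate 1 or 2, and 3124 and 2657 without WT replicate 1 or 2. Treating WT and control as 1 group of 4 left 310 calls against their mean, since the distance between these states then counted as error.

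**Figure D1:**
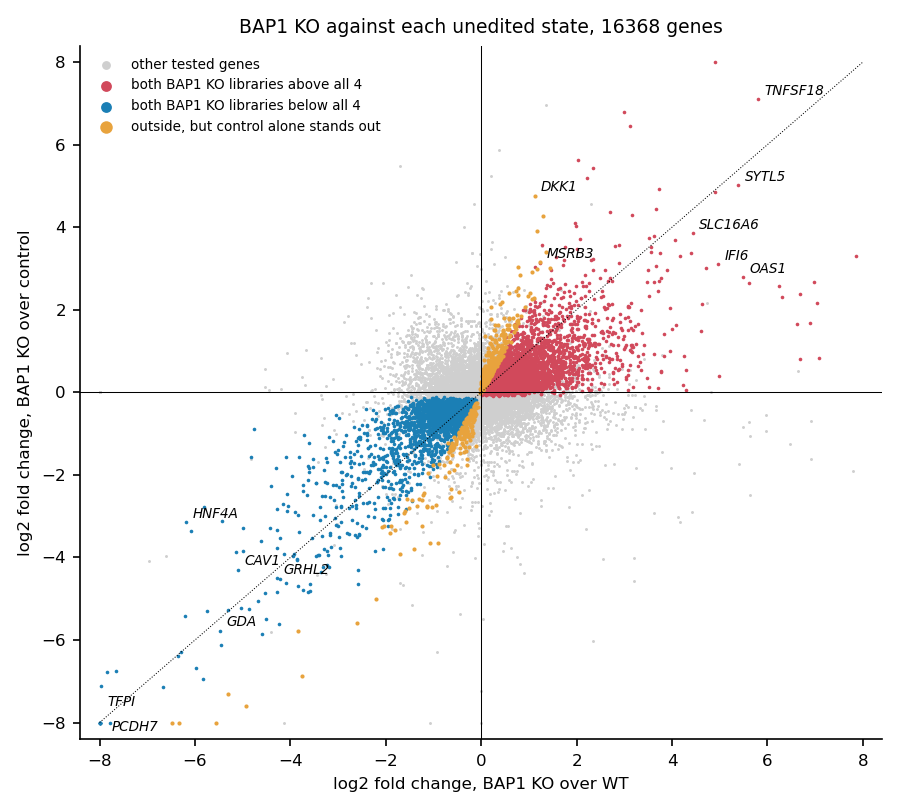
Log2 fold change of BAP1 KO over WT (x axis) and over control (y axis) for 16368 tested genes, with members above in red, members below in blue and genes set aside because control alone stood out in orange; 25 genes past 8 in either direction are drawn at the edge, and the dotted line marks equal change. SYTL5 and GDA lie near the line, whereas DKK1 and MSRB3 are among the genes set aside.

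The deepest loss was that of PCDH7, a protocadherin (chromosome 4, 30720369 to 31146800). Its WT libraries held 85.1 and 72.7 CPM and its control libraries 56.6 and 57.2 CPM, and no read fell on it in either BAP1 KO library. Set against 3 counts in each library, a limit for counting error alone, it was at least 764-fold lower than in WT and at least 551-fold lower than in control (adjusted p = 1.48e-05). PCDH7 was the only gene with at least 5 CPM in both unedited states and no read in either BAP1 KO library. In RNA from whole cultures, fewer cells with a transcript and less of it per cell cannot be told apart.

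TFPI, the tissue factor pathway inhibitor that restrains coagulation (chromosome 2, 187464230 to 187554435), was nearly lost as well. It had 313 and 302 reads in WT, 659 and 913 in control, and 2 and 0 in BAP1 KO. GDA, the guanine deaminase of purine breakdown (chromosome 9, 72114608 to 72259869), was at 54.8 and 57 CPM in WT, 63.8 and 67.9 in control and 0.931 and 1.67 in BAP1 KO. Its unedited libraries lay close together and far above both knockout libraries (log2 fold change -5.62 ± 0.24, adjusted p = 3.34e-05). SLC1A3, a glutamate and aspartate transporter, was at 27.6 and 18 CPM in WT, 12.5 and 12.2 in control, and 0.266 and 0.356 in BAP1 KO (-5.81 ± 0.29, adjusted p = 4.76e-05). It was low in the MLL4 KO libraries too, at 2.2 and 2.43 CPM, where PCDH7 stood at 103 and 109.6.

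Several of the other large falls are surface or trafficking genes. CAV1, which encodes caveolin-1 of the plasma membrane's caveolae, was at 340.4 and 199 CPM in WT, 146 and 145 in control and 7.55 and 8.47 in BAP1 KO (-4.70 ± 0.23, adjusted p = 4.8e-05). WT, control and BAP1 KO formed 3 separate steps for this gene. UNC13A, a priming factor of vesicle release, was at 128 and 83.3 CPM in WT, 144 and 144 in control, and 8.71 and 3.98 in BAP1 KO (-4.35 ± 0.34, adjusted p = 0.000721). CYP4F11, a fatty acid hydroxylase of the cytochrome P450 family, was level across the unedited libraries, at 22.9 to 24.6 CPM, and at 1.2 and 1.99 in BAP1 KO (-3.96 ± 0.24, adjusted p = 7.3e-05). GALNT5, which starts mucin-type O-glycosylation, fell to 0.731 and 0.712 CPM from between 16.5 and 38.2 in the unedited libraries (adjusted p = 0.00111), and DPP4, the dipeptidyl peptidase CD26, to 0.399 and 0.0712 from between 2.86 and 10.7 (adjusted p = 0.0027). Each of the genes named so far as lower kept its call under every alternative run, leaving out each library included. ADGRF1 and PROM2, also among the 12 largest falls, did not: without control replicate 1 and 2 their adjusted p was 0.0772 and 0.0858 for ADGRF1 and 0.0548 and 0.0583 for PROM2, and without BAP1 KO replicate 1 it was 0.0517 for ADGRF1. PROM2 was also lost with WT and control as 1 group (0.0837), and ADGRF1 with limma-voom (0.148), with all 8 libraries (0.0864) and without the filter on low counts (0.0514).

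**Figure D2:**
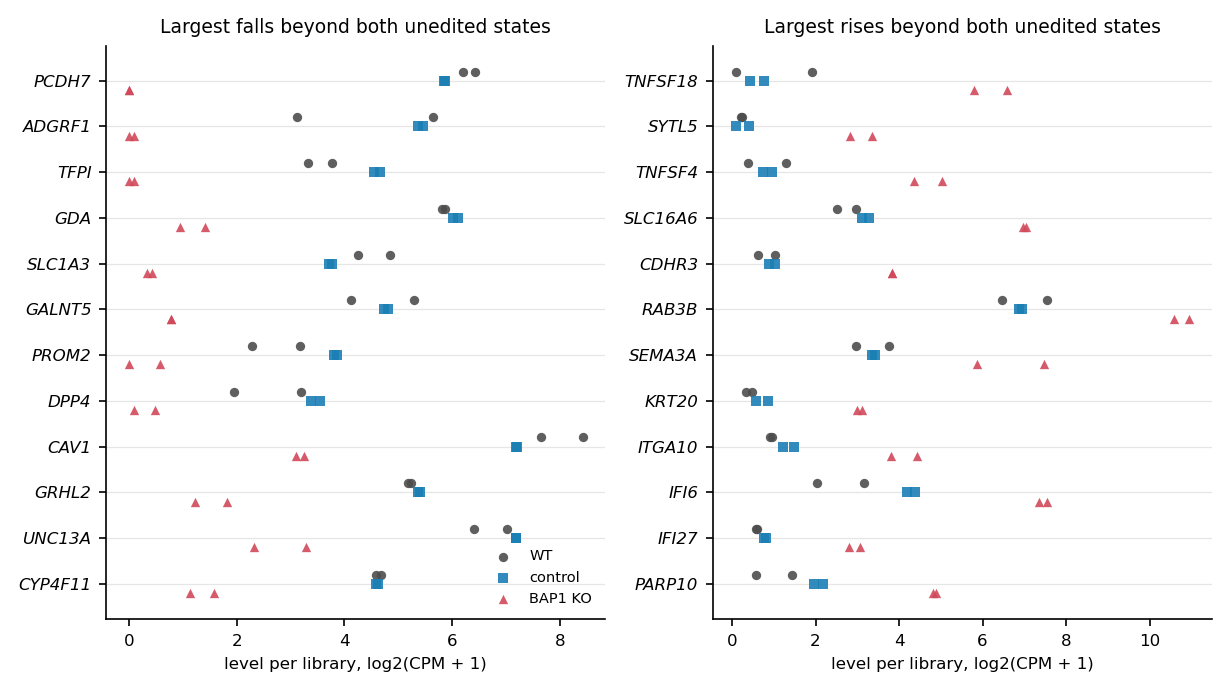
Level in each library, log2(CPM + 1), of the 12 largest falls (left) and the 12 largest rises (right), with WT as grey circles, control as blue squares and BAP1 KO as red triangles, 2 libraries each; levels are to be compared within a gene, since CPM is not per length. By the rule, both BAP1 KO triangles lie outside the 4 unedited points in every row, and PCDH7 is at 0 in both.

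CAV1 did not fall alone. Among genes next to each other on chromosome 7, CAV2, which encodes the partner of caveolin-1, and TES, a focal adhesion gene, were members below as well, with log2 fold changes of -3.71 ± 0.20 (adjusted p = 6.11e-05) and -1.57 ± 0.12 (adjusted p = 0.00022). TES did not pass with WT and control as 1 group (adjusted p = 0.0950). CAV2 was at 129 and 83.9 CPM in WT, 138 and 147 in control and 8.64 and 11.1 in BAP1 KO. MDFIC, the fourth gene of the run, was a member below whose difference from control did not pass (-0.48, adjusted p = 0.192), and its call against the mean (-0.85, adjusted p = 0.0233) was lost in 5 alternatives. These 3 genes were chosen after their values were seen, from the runs of neighbouring members described further below.

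Epithelial junction genes were lower where they changed. Of 38 tested genes of epithelial junctions and their regulators, 12 were members below (31.6%, against 13% of all genes tested) and 0 above. Against the mean of both states 17 fell and 0 rose by edgeR, while 2 were higher at an unadjusted p under 0.05, and 1 by DESeq2 and 1 by limma-voom. The median log2 fold change was -0.44 against 0.01 over all genes tested. It was -0.26 without BAP1 KO replicate 1 and -0.73 without BAP1 KO replicate 2, and -0.17 over WT alone against -0.58 over control alone, with 18 of the 38 genes higher and 2 lower in control than in WT. Beyond both states were 9 of them. Without WT replicate 2 the split was 15 lower and 2 higher. GRHL2, a transcription factor that maintains epithelial junction genes, was at 35.2 and 36.8 CPM in WT, 41.1 and 39.9 in control, and 1.33 and 2.53 in BAP1 KO. Its unedited libraries formed a narrow band, and the log2 fold change was -4.39 ± 0.26 (adjusted p = 7.29e-05).

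Desmosomal cadherins, which hold epithelial cells together, fell with it. DSC3 was at 22.2 and 25.5 CPM in WT, 33.6 and 32.8 in control and 3.16 and 1.49 in BAP1 KO (-3.67 ± 0.28, adjusted p = 0.000224). DSC2 was at 79.5 and 85.6, 65.6 and 67.4, and 9.77 and 11.1 CPM in the same order (-2.91 ± 0.13, adjusted p = 3.84e-05). CGN, which encodes the tight junction protein cingulin, went from between 26.4 and 37 CPM to 8.58 and 8.25 (-2.05 ± 0.14, adjusted p = 0.00011). OVOL1, an epithelial transcription factor chosen after its values were seen, went from between 14.8 and 24 CPM to 4.36 and 5.73 (-2.10 ± 0.22, adjusted p = 0.000944). These 4 are members, so they lie outside the unedited libraries by the rule, and none lost its call in any alternative.

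CDH1 and EPCAM, which encode the epithelial surface proteins E-cadherin and EpCAM, were not members. CDH1 was at 81 and 59.5 CPM in WT, 221 and 229.9 in control and 29.2 and 70.2 in BAP1 KO, so that the knockout overlapped WT. EPCAM was at 222 and 269, 368 and 397, and 128 and 196 CPM in the same order, and was set aside because control stood farther from WT than BAP1 KO did. KRT8, an epithelial keratin, was a member below, at 1853 and 1678 CPM in WT, 1992 and 1978 in control and 1279 and 1351 in BAP1 KO (-0.59 ± 0.10, adjusted p = 0.00518, but 0.186 with WT and control as 1 group and 0.934 in the test against a 1.5-fold change). The number of junction genes called was 11 without control replicate 1, 11 without control replicate 2 and 9 without BAP1 KO replicate 1.

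Mesenchymal genes did not move in 1 direction. Of 19 tested, 4 were members above (21.1%, as for all genes tested) and 6 below (31.6%, against 13%). ZEB1, a repressor of epithelial genes, rose from between 2.33 and 4.66 CPM to 24.3 and 14.7 (2.40 ± 0.24, adjusted p = 0.000734). VIM, the intermediate filament vimentin, rose from between 0.537 and 1.93 CPM to 11.5 and 5.84 (3.18 ± 0.44, adjusted p = 0.00271), with an adjusted p of 0.0501 without BAP1 KO replicate 1. Among members below, FN1, which encodes fibronectin, was at 22.5 and 12.3 CPM in WT, 9.55 and 7.71 in control and 5.42 and 2.24 in BAP1 KO. Its adjusted p was 0.0154, and the call was lost without control replicate 1 (adjusted p = 0.0565), without BAP1 KO replicate 2 (0.0769), in the test against a 1.5-fold change (0.0757) and with WT and control as 1 group (0.148).

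Several of the largest rises began from near silence. TNFSF18 and TNFSF4 encode the ligands GITRL and OX40L, which costimulate T cells, and lie next to each other on chromosome 1 (173039202 to 173050941 and 173172870 to 173450733). TNFSF18 was at 2.78 and 0.0597 CPM in WT, 0.703 and 0.345 in control and 94.2 and 54.3 in BAP1 KO (6.45 ± 0.80, adjusted p = 0.00512). Its call was lost without control replicate 1 (adjusted p = 0.102) and without control replicate 2 (adjusted p = 0.12), although the log2 fold change was then 6.70 and 6.18. TNFSF4 was at 1.45 and 0.298, 0.666 and 0.936, and 31.5 and 19.5 CPM in the same order (4.88 ± 0.43, adjusted p = 0.000738), and kept its call throughout. Both genes were higher in the second MLL4 KO library, at 15.8 and 4.62 CPM, than in the first, at 0.474 and 2.3.

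SLC16A6, a transporter of the monocarboxylate family (chromosome 17, 68267026 to 68291479), had the smallest adjusted p among the rises named here. It was at 6.85 and 4.71 CPM in WT, 8.73 and 7.59 in control and 124 and 132 in BAP1 KO (4.15 ± 0.14, adjusted p = 1.66e-05). CDHR3, a cadherin-related protein of ciliated airway cells, was at 0.537 to 1.05 CPM in the unedited libraries and at 13.3 in both knockout libraries (3.87 ± 0.24, adjusted p = 9.33e-05). KRT20, a keratin of differentiated intestinal epithelium, rose from between 0.269 and 0.814 CPM to 6.91 and 7.58 (3.89 ± 0.29, adjusted p = 0.000202), and ITGA10, a collagen-binding integrin subunit, from between 0.865 and 1.81 to 20.4 and 13 (3.73 ± 0.24, adjusted p = 9.71e-05). SEMA3A, a secreted axon guidance cue, was at 6.8 to 12.6 CPM in the unedited libraries and 177 and 57.3 in BAP1 KO, the knockout libraries lying far apart, and its call was lost without control replicate 1 (adjusted p = 0.0659) and without control replicate 2 (adjusted p = 0.0743).

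Some of the largest changes were in genes of regulated secretion. RAB3B, a GTPase of secretory vesicles, was at 87 and 184 CPM in WT, 122 and 115 in control and 1976 and 1540.2 in BAP1 KO (3.70 ± 0.31, adjusted p = 0.00102). SYTL5, a RAB27 effector, rose from between 0.074 and 0.32 CPM to 9.21 and 6.08 (5.21 ± 0.40, adjusted p = 0.00024). Of 28 tested genes of RAB3 and RAB27 exocytosis, 8 were members above and 4 below, shares of 28.6% and 14.3% that lie near those of all genes tested (21.1% and 13%). Of the same genes 9 rose and 6 fell, and the 4 below included UNC13A. SYTL3, another effector of the family, was at 69.4 and 84.1 CPM in WT, 43.3 and 40.9 in control, and 9.87 and 17.2 in BAP1 KO (-2.15 ± 0.25, adjusted p = 0.00191). It lost its call only with WT and control as 1 group (adjusted p = 0.0586), and the count of calls in the list was 9 without BAP1 KO replicate 1.

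Interferon response genes had the largest share of members above among the 29 lists, 79.1%, against 21.1% of all genes tested. Of 43 tested, 34 were members above and 0 below, 37 rose and 0 fell by edgeR, and 0 were lower at an unadjusted p under 0.05, by DESeq2 or by limma-voom. The median log2 fold change was 1.46. Beyond both states were 18. Most of these genes already differed between the unedited states: 30 of 43 were higher in control than in WT, with a median difference of 1.31, and in 29 of 43 the levels went up in 3 steps without overlap from WT to control to BAP1 KO, against 10.5% of all genes tested. The count of calls was 23 without BAP1 KO replicate 1, 38 without WT replicate 2, and 4 with WT and control as 1 group.

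IFI6 and IFI27, small interferon-induced proteins, were the interferon genes among the 12 largest rises, together with PARP10, a mono-ADP-ribosyltransferase on no list used here. IFI6 (chromosome 1, 27666064 to 27672192) was at 7.94 and 3.07 CPM in WT, 19.8 and 17.3 in control and 161 and 184 in BAP1 KO (4.04 ± 0.28, adjusted p = 0.000527). IFI27 was at 0.524 and 0.477, 0.703 and 0.764, and 5.92 and 7.33 CPM in the same order (3.37 ± 0.25, adjusted p = 0.000196). PARP10 rose from between 0.477 and 3.5 CPM to 27.2 and 28.7 (3.86 ± 0.31, adjusted p = 0.000356). All 3 kept their calls in every alternative.

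IRF9, a DNA-binding factor that transmits the interferon signal, was a member too. It was at 8.91 and 7.01 CPM in WT, 32.6 and 29.1 in control and 74.2 and 72.5 in BAP1 KO (2.15 ± 0.11, adjusted p = 4.8e-05). The step from WT to control was larger for IRF9 than the step from control to BAP1 KO, which was 1.14 on the log2 scale (adjusted p = 0.00139), and with WT and control as 1 group its call was lost (adjusted p = 0.199). BST2, or tetherin, chosen after its values were seen, went from 1.05 and 0.0597 CPM in WT and 8.03 and 7.25 in control to 25.5 and 55 in BAP1 KO. Its difference from control did not pass (2.30, adjusted p = 0.0543), and the call against the mean was lost without control replicate 1 (adjusted p = 0.0788), without control replicate 2 (0.088) and with WT and control as 1 group (0.236).

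Promoters of these genes are shown because the interferon list had the largest share of members above and its factors read a known motif, the interferon-stimulated response element. RefSeq promoter windows of 300 bases (250 before the start and 50 after it, GRCh38.p14) were searched on both strands for this motif, taken as GAAA, any 2 bases and GAAA, with overlapping matches counted separately. The motif was found in 21 of the 34 interferon list genes with a window (61.8%), in 17 of the 28 that were members above (60.7%), in 2.84% of the tested genes with a window and in 3.65% of all windows. Members above without a match include IRF9, OAS1 and RIGI. The 200 bases before the start of 5 interferon list genes with matches, picked by hand, follow, 5′ to 3′ on the gene's strand, with motif matches in capitals.
IFI6, chr1:27672193-27672392, minus strand: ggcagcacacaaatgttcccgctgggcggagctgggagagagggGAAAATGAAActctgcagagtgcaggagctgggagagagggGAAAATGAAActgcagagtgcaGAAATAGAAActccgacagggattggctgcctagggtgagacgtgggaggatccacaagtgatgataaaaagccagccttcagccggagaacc
IFI27, chr14:94110536-94110735, plus strand: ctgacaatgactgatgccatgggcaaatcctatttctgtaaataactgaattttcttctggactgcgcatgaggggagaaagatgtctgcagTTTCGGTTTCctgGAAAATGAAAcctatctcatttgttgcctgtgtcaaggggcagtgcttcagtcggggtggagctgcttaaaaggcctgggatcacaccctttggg
BST2, chr19:17405631-17405830, minus strand: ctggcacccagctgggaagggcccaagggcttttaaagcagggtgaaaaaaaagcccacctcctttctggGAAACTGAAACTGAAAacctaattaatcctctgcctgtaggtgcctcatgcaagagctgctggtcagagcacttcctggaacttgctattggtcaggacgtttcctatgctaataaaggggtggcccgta
ISG15, chr1:1013297-1013496, plus strand: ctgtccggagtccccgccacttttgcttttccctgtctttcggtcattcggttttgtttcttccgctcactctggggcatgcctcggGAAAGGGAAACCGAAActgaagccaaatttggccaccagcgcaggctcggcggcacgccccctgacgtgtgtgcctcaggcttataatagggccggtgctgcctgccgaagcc
IFIT1, chr10:89392423-89392622, plus strand: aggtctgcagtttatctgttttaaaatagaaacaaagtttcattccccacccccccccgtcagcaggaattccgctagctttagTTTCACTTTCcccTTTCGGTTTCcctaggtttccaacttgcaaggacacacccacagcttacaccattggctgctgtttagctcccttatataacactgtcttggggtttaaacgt

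IFI6, the most raised of these 5 against control, has 3 matches, between 156 and 93 bases before the start, and the other 4 have 2 each. In BST2 and ISG15 the matches overlap. The members above and beyond both states as a whole held the motif in 24 of 624 windows (3.85%), of which 6 belong to the interferon list, and those below in 13 of 676 (1.92%). A match is a description of the letters and not of a bound site.

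A further 3 motifs tied to BAP1 partners or to GRHL2 were each in under 5% of the windows of these sets. The forkhead motif GTAAACA, which FOXK partners of BAP1 can read, was in 10 of the 624 windows above (1.60%), 15 of the 676 below (2.22%), 2.32% of tested genes and 3.41% of all windows. The motif AAGATGGC of YY1, another BAP1 partner, was in 2.40%, 3.40%, 4.87% and 3.03% in the same order. The grainyhead motif AACNNGTT, read by GRHL2, was in 1.76%, 1.92% and 2.59% of the same sets and in 956 of all 27305 windows. The AP-1 motif TGANTCA was in 4.49% of windows above, 4.29% below, 4.85% of tested genes and 7.76% of all windows, and TATAAA in 5.13%, 7.25%, 6.28% and 12% in the same order. The median ratio of observed to expected CpG was 0.817 above, 0.825 below and 0.822 over tested genes. Each of these motifs was searched on both strands.

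Antigen presentation genes were mostly higher too, more so over WT than over control. Of 26 tested, 16 were members above (61.5%, against 21.1% of all genes tested) and 0 below. By edgeR 14 rose and 0 fell, with 2 lower at an unadjusted p under 0.05 and by DESeq2, and 1 by limma-voom. The median log2 fold change was 0.73, but 1.14 over WT alone and 0.18 over control alone. Beyond both states were 6. Between the unedited states 12 of the 26 were higher and 1 lower in control than in WT. In 12 the levels went up in 3 steps from WT to control to BAP1 KO, against 10.5% of all genes tested. PSMB9, a subunit of the immunoproteasome, was at 3.75 and 1.91 CPM in WT, 4.48 and 3.67 in control and 15.6 and 22.7 in BAP1 KO (2.44 ± 0.26, adjusted p = 0.00101). HLA-F, a non-classical class I gene, went in 3 steps, from 10.4 and 9.34 to 21.2 and 21.6 and then 41.9 and 43.8 CPM (1.48 ± 0.10, adjusted p = 0.000164). With WT and control as 1 group HLA-F did not pass (adjusted p = 0.147). HLA genes share sequence with one another, so the split of reads among them is uncertain.

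**Figure D3:**
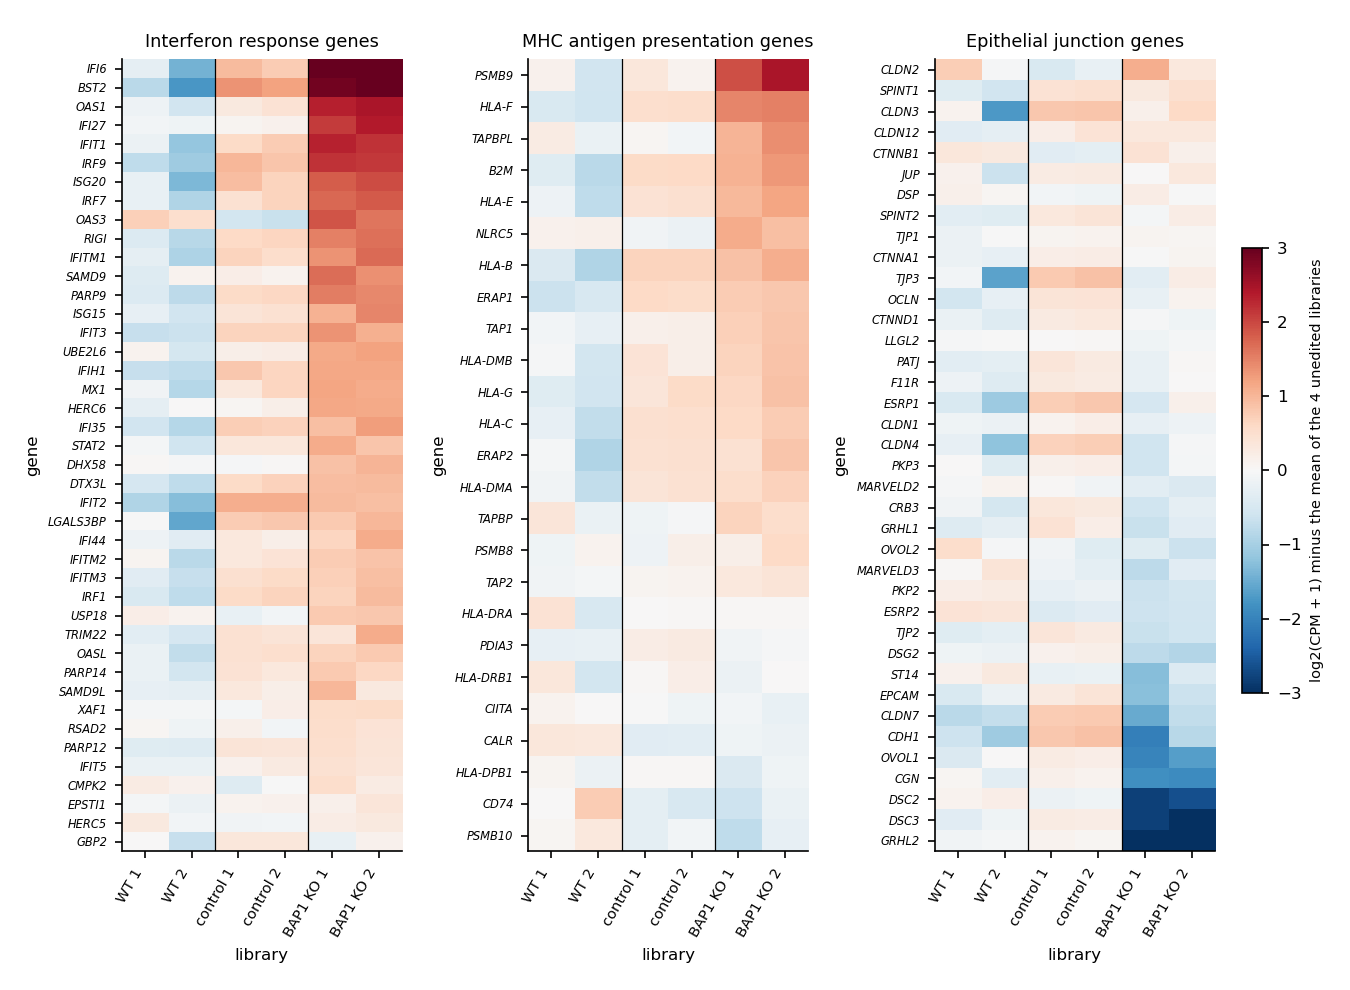
Level in each of the 6 libraries (columns), as log2(CPM + 1) minus the mean of the 4 unedited libraries, for tested interferon response, antigen presentation and epithelial junction genes (a few are not drawn), each ordered by its BAP1 KO level; the colour scale ends at 3 in each direction. Of the 43 interferon genes tested, 29 went up in 3 steps, seen as blue in WT and darkest red in BAP1 KO, while OAS3 was lower in control than in WT. By contrast, the lowest junction genes, GRHL2, DSC3 and DSC2, are pale in all 4 unedited libraries and dark blue in BAP1 KO.

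HOX genes, the classic Polycomb targets, went in opposite directions by cluster. Of the tested HOX genes 25.8% were members above and 38.7% below, against 21.1% and 13% of all genes tested. Of 11 tested HOXA genes 10 were members below and 0 above, and 9 passed against both states, whereas of 9 tested HOXB genes 6 were members above and 0 below, with 5 beyond both. The median log2 fold change was -1.74 over HOXA and 1.30 over HOXB. HOXC genes were mixed, with 2 above and 2 below of 8. Of 3 tested HOXD genes HOXD3 and HOXD8 fell, but were set aside because on log2(CPM + 1) control stood farther from WT than BAP1 KO did.

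Within HOXA the log2 fold changes of HOXA3, HOXA5 and HOXA6 lay between -1.74 and -3.68, and those of the 5 members from HOXA7 to HOXA13 between -0.54 and -1.39. Low-numbered HOX genes act towards the head in the embryo. HOXA4, at 0.298 to 1.97 CPM in the unedited libraries, had 0.0665 CPM in BAP1 KO replicate 1 and no read in replicate 2, too few for a fold. Its call (adjusted p = 0.0155) was lost without BAP1 KO replicate 1 (0.0961), without BAP1 KO replicate 2 (0.114), in the test against a 1.5-fold change (0.0519) and with WT and control as 1 group (0.0934). HOXA3 was at 12.4 and 4.39 CPM in WT, 11.6 and 10.9 in control and 0.864 and 0.712 in BAP1 KO (-3.68 ± 0.45, adjusted p = 0.00177). HOXA6 fell by 2.34 ± 0.30 (adjusted p = 0.00204). HOXA5 and HOXA11, named after their values were seen, fell by 1.74 ± 0.26 (adjusted p = 0.0032) and 1.39 ± 0.18 (adjusted p = 0.00208). HOXA3, HOXA5, HOXA6 and HOXA11 kept their calls in every alternative. HOXA13 was a member below that did not pass (-0.54 ± 0.21, adjusted p = 0.083), though it did without WT replicate 2 (adjusted p = 0.045).

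In HOXB, HOXB3 was at 21.2 and 12.6 CPM in WT, 14.5 and 13.3 in control and 43.7 and 47.6 in BAP1 KO (1.51 ± 0.17, adjusted p = 0.00125), with its call kept throughout. HOXB4 was at 21.4 and 13.3, 9.18 and 10.4, and 32.9 and 39.2 CPM (1.40 ± 0.18, adjusted p = 0.00179). Its call was lost with WT and control as 1 group (adjusted p = 0.0934). The MLL4 KO libraries were higher than WT for both genes too, at 30.6 and 37.3 CPM for HOXB3 and 30.6 and 32.4 for HOXB4. Over the whole list, 10 HOX genes were called without BAP1 KO replicate 2 and 11 without BAP1 KO replicate 1, against 22 with all libraries. HOX clusters hold antisense genes, and no source used here gives the strand setting of the counts, so reads of a HOX gene and its antisense partner cannot be told apart.

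**Figure D4:**
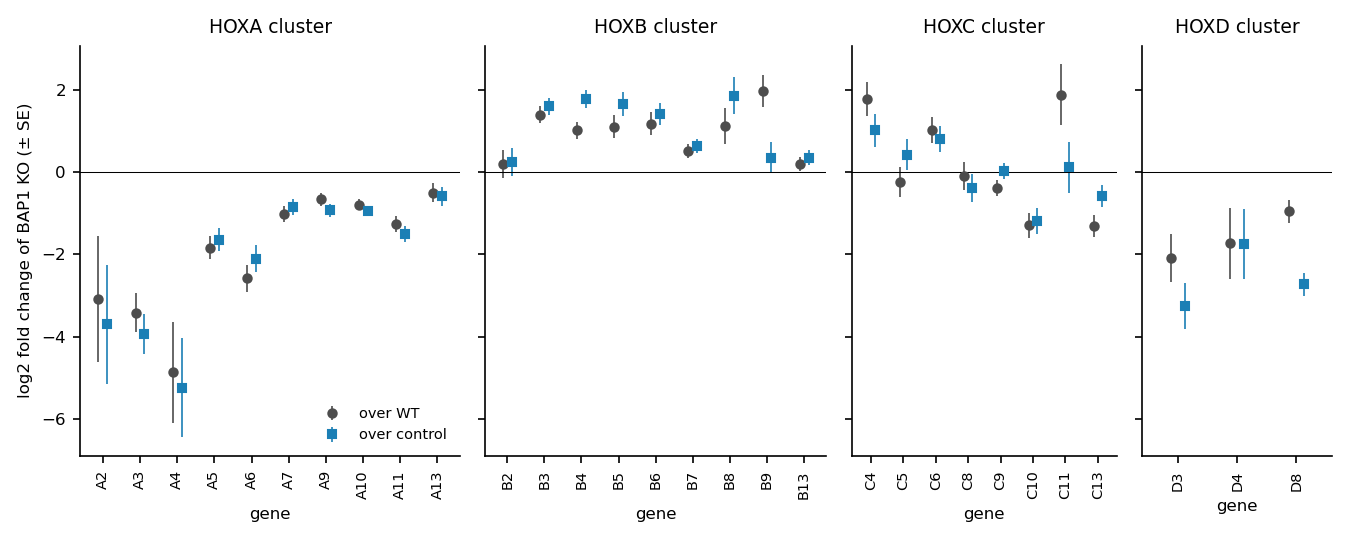
Log2 fold change of BAP1 KO over WT (grey circles) and over control (blue squares), with SE bars, for tested HOX genes grouped by cluster and ordered by number, with 1 gene not drawn. All HOXA points shown lie below 0, and HOXB3 to HOXB8 lie above 0 in both comparisons.

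Of the other developmental and intestinal transcription factors, 9 of 53 were members above (17%, against 21.1% of all genes tested) and 12 below (22.6%, against 13%). In the test 8 rose and 12 fell. FOXC1, a forkhead factor of mesoderm and eye development, rose from between 43 and 93 CPM to 348 and 322 (2.05 ± 0.22, adjusted p = 0.00141). MSX1, a homeobox factor of craniofacial development, rose from between 88.5 and 105 CPM to 272 and 188 (1.20 ± 0.13, adjusted p = 0.00101). GATA3 went the other way, from between 2.15 and 2.66 CPM to 0.366 and 0.427 (-2.68 ± 0.33, adjusted p = 0.00173). These 3 kept their calls in every alternative.

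HNF4A, a master regulator of intestinal epithelium, fell in 2 steps. It was at 8.34 and 11.3 CPM in WT, 1.07 and 1.23 in control, and 0.199 and 0.0712 in BAP1 KO (-4.67 ± 0.43, adjusted p = 0.000553), and it lost its call with WT and control as 1 group (adjusted p = 0.126).

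Of 32 tested genes of the Polycomb complexes 8 were members above (25%, against 21.1% of all genes tested) and 2 below (6.25%, against 13%), and 7 rose and 2 fell. PHF1, an accessory subunit of Polycomb repressive complex 2, was at 34.9 and 26.5 CPM in WT, 40.7 and 37.9 in control and 89.1 and 82.6 in BAP1 KO (1.23 ± 0.11, adjusted p = 0.000446). CBX7, a chromodomain subunit of Polycomb repressive complex 1, rose from between 21 and 27.5 CPM to 47.5 and 44.5 (0.91 ± 0.11, adjusted p = 0.0015). BMI1, a core subunit of the same complex, fell from between 80.5 and 112 CPM to 39.5 and 38.9 (-1.30 ± 0.16, adjusted p = 0.0015). The 3 genes kept their calls throughout.

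Of 13 tested genes of the PR-DUB complex 0 were beyond both states by edgeR, DESeq2 or limma-voom. At an unadjusted p under 0.05 there was 1, and by edgeR 10.5% of all genes tested were beyond both. Against the mean 2 rose and 2 fell (15.4% each, against 15.4% and 14.6% of all genes tested). The 2 members above (15.4%, against 21.1%) were MBD5 and MBD6, methyl-CpG-binding-domain proteins of the complex. These shares are near or under those of all genes tested. MBD5 was at 11.2 and 8.53 CPM in WT, 13.8 and 13.2 in control and 23.4 and 17.3 in BAP1 KO, and its difference from control did not pass (0.48, adjusted p = 0.0983). Against the mean it passed (0.74 ± 0.16, adjusted p = 0.0116), but not without control replicate 2 (0.0528), without BAP1 KO replicate 1 (0.118) or with WT and control as 1 group (0.199).

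Growth factor signalling held large changes in both directions. EGFR, the epidermal growth factor receptor, was at 141 and 133 CPM in WT, 149 and 154 in control and 560.2 and 467 in BAP1 KO (1.75 ± 0.09, adjusted p = 5.75e-05). EREG, which encodes its ligand epiregulin, was at 607 and 559, 935 and 978, and 109 and 144 CPM in the same order (-2.63 ± 0.16, adjusted p = 7.29e-05). The receptor was a member above and the ligand a member below. AREG, another ligand, was at 204 and 356, 837 and 829, and 45.4 and 78.7 CPM (-3.04 ± 0.38, adjusted p = 0.00356), with the call lost when WT and control were 1 group (adjusted p = 0.0876). Of the 36 tested receptors and ligands 7 were members above and 6 below, shares near those of all genes tested.

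MYC and some purine genes were lower. MYC, the proliferation factor downstream of WNT signalling, was at 414 and 384 CPM in WT, 271 and 281 in control and 97.6 and 131 in BAP1 KO (-1.61 ± 0.15, adjusted p = 0.000538). Of 19 tested genes of purine breakdown and salvage 7 were members below (36.8%, against 13% of all genes tested) and 0 above. By edgeR 7 fell and 0 rose, with 0 higher at an unadjusted p under 0.05, by DESeq2 or by limma-voom. The median log2 fold change was -0.08. Besides GDA, AMPD3, an AMP deaminase, fell from between 25 and 36.8 CPM to 8.94 and 9.78 (-1.70 ± 0.17, adjusted p = 0.000719). IGF2, a growth factor ligand, and RET, a receptor tyrosine kinase, went the other way, from between 20.7 and 31.6 CPM to 78.2 and 69.2 (1.49 ± 0.10, adjusted p = 0.000107) and from between 5.4 and 8.86 CPM to 28.1 and 19.6 (1.75 ± 0.20, adjusted p = 0.00126).

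Of 17 tested integrins 5 were members above (29.4%, against 21.1% of all genes tested) and 0 below (against 13%). In the test 6 rose (35.3%, against 15.4%) and 1 fell (5.88%, against 14.6%). Besides ITGA10, ITGA2, a collagen-binding subunit, was at 60.9 and 39.8 CPM in WT, 98.1 and 102 in control, and 223 and 224 in BAP1 KO (1.58 ± 0.13, adjusted p = 0.000373). Its levels went up in 3 steps, and the call was lost with WT and control as 1 group (adjusted p = 0.114). Matrix genes were mixed, with 8 above and 5 below of 35, shares (22.9% and 14.3%) near those of all genes tested. LAMA3 and COL17A1, both of epithelial anchoring structures, fell to 0.399 and 1.14 CPM and to 0.299 and 0.356 CPM from between 8.18 and 21.2 and between 2.88 and 5.52 (adjusted p = 0.00046 and 0.00111).

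Of 25 tested amino acid transporters 4 were members below (16%, near the 13% of all genes tested) and 1 above. In the test 7 fell (28%, against 14.6%) and 2 rose (8%, against 15.4%). The median log2 fold change was 0.16 over WT alone and -0.47 over control alone, with 12 of the 25 genes higher and 7 lower in control than in WT. SLC7A2, a transporter of cationic amino acids, was at 37.4 and 42.3 CPM in WT, 14.3 and 17.2 in control and 3.59 and 3.84 in BAP1 KO (-2.83 ± 0.17, adjusted p = 7.3e-05). SLC38A5, a glutamine transporter, was at 38.7 to 50.3 CPM in the unedited libraries and at 21 and 20.8 in BAP1 KO (-1.15 ± 0.13, adjusted p = 0.00118). The first stepped down from WT to control to BAP1 KO and was lost with WT and control as 1 group (adjusted p = 0.0544), whereas the second was level in the unedited states.

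Axon guidance genes were members in both directions, 9 above and 9 below of 36. These shares were 25% each, against 21.1% above and 13% below over all genes tested. NAV3, a neuron navigator, was at 18.9 and 13.3 CPM in WT, 2.15 and 2.49 in control and 0.332 and 0.142 in BAP1 KO (-4.73 ± 0.35, adjusted p = 0.000202). SEMA3C, a relative of SEMA3A, went from 25.4 and 58.9 CPM in WT and 8.48 and 8.16 in control to 1.4 and 0.64 (-4.28 ± 0.53, adjusted p = 0.00334), so the SEMA3 ligands named here were found on both sides. NRP1, a receptor for these ligands, was at 4.11 and 7.07 CPM in WT, 64.6 and 67.3 in control and 86.3 and 67.7 in BAP1 KO, so nearly the whole distance lay between WT and control. With WT and control as 1 group none of NAV3 (adjusted p = 0.0993), SEMA3C (0.095) and NRP1 (0.653) passed.

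Of 21 tested keratins and squamous genes 3 were members above (14.3%, against 21.1% of all genes tested) and 3 below (14.3%, against 13%). In the test 3 rose and 7 fell (33.3%, against 14.6%), with a median log2 fold change of -0.48. This median was 0.03 over WT alone and -0.70 over control alone, with 9 of the 21 genes higher and 0 lower in control than in WT. Beyond both states were 2 higher and 4 lower. KRT23 was at 11.2 and 7.58 CPM in WT, 21.6 and 22.6 in control and 64 and 66.8 in BAP1 KO (2.11 ± 0.13, adjusted p = 9.71e-05). KLK6, a secreted serine protease, was at 41.4 and 17.6, 110.4 and 119.9, and 3.56 and 6.37 CPM in the same order (-3.62 ± 0.44, adjusted p = 0.00394), with control highest and BAP1 KO lowest. Neither passed with WT and control as 1 group (adjusted p = 0.0863 and 0.095). In the brush border list 3 were above and 3 below of 14, 21.4% each, against 21.1% and 13% of all genes tested. EZR, the microvillus linker ezrin, fell from between 2236 and 2494 CPM to 998 and 1120.3 (-1.23 ± 0.13, adjusted p = 0.000829).

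Of the TGF-beta and BMP response genes 4 were above (17.4%, against 21.1% of all genes tested) and 5 below (21.7%, against 13%) of 23. LTBP1, which stores latent TGF-beta in the matrix, was level in the unedited libraries, at 11.5 to 14.2 CPM, and at 3.56 and 2.74 in BAP1 KO (-2.14 ± 0.19, adjusted p = 0.000474). Of the WNT antagonists and targets 4 were above (20%) and 3 below (15%) of 20, near the shares of all genes tested. Among those above, CD44, a hyaluronan receptor, was at 503 and 259 CPM in WT, 619 and 603 in control and 1446 and 1713 in BAP1 KO (1.64 ± 0.21, adjusted p = 0.00266). The CD44 call was lost with WT and control as 1 group (adjusted p = 0.0841). Of the p53 targets 8 were above (22.9%) and 3 below (8.57%) of 35, whereas 6 rose and 7 fell in the test. PLK2, a stress-induced kinase, was at 86.8 and 60 CPM in WT, 32.5 and 34.3 in control and 14.1 and 8.68 in BAP1 KO (-2.20 ± 0.21, adjusted p = 0.000637, but 0.0723 with WT and control as 1 group).

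The remaining lists had these members above and below, beside shares of 21.1% and 13% over all genes tested. MAPK feedback and immediate early genes had 8 and 3 of 31 (25.8% and 9.68%). EPH receptors and ephrins had 7 and 0 of 16 (43.8% above), and H3K4 methyltransferase complexes 4 and 2 of 17 (23.5% and 11.8%). NF-kB targets had 3 and 1 of 24 (12.5% and 4.17%), and cadherins 2 and 2 of 14 (14.3% each). Cholesterol synthesis had 2 and 0 of 25 (8% above), and goblet cell genes 1 and 0 of 5 (20% above). In the test against the mean the balance differed for NF-kB targets, of which 5 rose and 6 fell, and for cholesterol synthesis, of which 2 rose and 4 fell. Of the EPH list and the H3K4 methyltransferase list 0 genes were beyond both states by edgeR, DESeq2 or limma-voom. At an unadjusted p under 0.05 there were 1 and 4, and by edgeR 10.5% of all genes tested were beyond both.

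**Figure D5:**
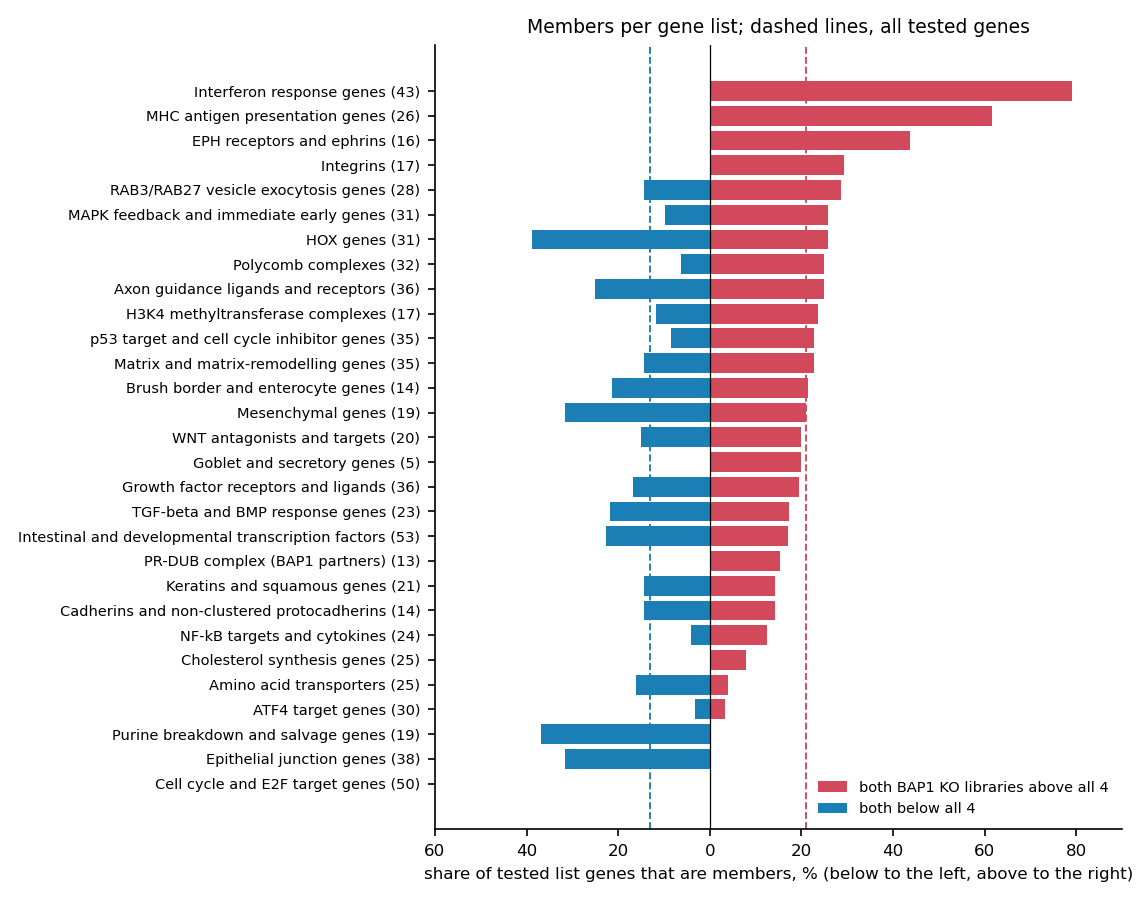
Share of the tested genes of each of 29 lists (number tested in brackets) that were members above (red, to the right) or below (blue, to the left), with dashed lines at the shares over all 16368 tested genes (21.1% above, 13% below). The interferon and antigen presentation bars reach farthest to the right, the HOX, purine, junction and mesenchymal bars farthest to the left, and the cell cycle list has no member.

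The cell cycle list held no member. Of its 50 tested genes, 48 had both BAP1 KO libraries strictly between WT and control, against 17.6% of all genes tested. The median log2 fold change was -1.31 over WT and 1.09 over control. CCNB1, or cyclin B1, chosen as an example after its values were seen, was at 215 and 273 CPM in WT, 29.6 and 33.6 in control and 96.7 and 80.8 in BAP1 KO. Targets of the stress factor ATF4 were also mostly between, 19 of 30, in the other order, and 1 was a member above and 1 below. The member below, CTH, which makes cysteine, went from between 6.62 and 9.67 CPM to 1.7 and 2.24 (-2.10 ± 0.24, adjusted p = 0.00133). ASNS, asparagine synthetase, likewise chosen, was at 99.2 and 64.7 CPM in WT, 629.8 and 628 in control and 199 and 339 in BAP1 KO. These 2 lists and the interferon list all differ between the unedited states, and their part in the members' changes was not tested.

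Genes where control alone stood out were set aside, and they include large changes against control. DKK1, a WNT antagonist, was at 119.7 and 352 CPM in WT, 19.1 and 17.8 in control and 469 and 608 in BAP1 KO. Both knockout libraries were above all 4, but its difference from WT did not pass (1.12, adjusted p = 0.149), while that from control was 4.76 (adjusted p = 0.00644).

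Members lay in runs along the chromosomes in places. Of all genes tested 21.1% were members above and 13% below. The number of runs that these shares alone would give was not computed, so the runs are only listed. The run with the most genes was the protocadherin gamma cluster on chromosome 5 (141330514 to 141512975), where 22 neighbouring genes were members above. These genes share their 3′ exons and so largely their counts, at 4.67 to 11.3 CPM in WT and 10.7 to 23.3 in BAP1 KO, with log2 fold changes between 0.64 and 0.77, and are better read as 1 signal. The next were the HOXA cluster on chromosome 7, with 9 neighbours below, and the HOXB cluster on chromosome 17, with 8 above, both with antisense genes among them. On chromosome 17 SLC16A6 stood in a run of 6 members above, from AMZ2 to MIR635 (68206129 to 68551316). DSC3, DSC2 and DSG2 stood together below on chromosome 18, and BMI1 and COMMD3 below on chromosome 10, where readthrough transcripts join these 2 genes and share reads with them.

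The edge of the rule is narrow. The member below nearest to it, MXD3, was at 52.9 and 52.6 CPM in control and 52.6 and 51.2 in BAP1 KO, and IMP3, just outside, had 41.3 CPM in both its lowest unedited and its highest BAP1 KO library. On the upper side BTBD6 was just past the edge, with 43.3 CPM in WT replicate 1 and in BAP1 KO replicate 1, though set aside for control, and MAD2L1BP was just short of it, at 22.1 CPM in WT replicate 2 and in BAP1 KO replicate 1. A gap of at least 1.5-fold between the nearest libraries left 1170 members, 697 above and 473 below.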

How the data were processed

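For each of the 6 libraries, the deposited table lists RefSeq transcripts with their read counts and RPKM values, per the file headers. The counts were not normalized by the authors, and the deposited RPKM values are also per transcript length. According to the submitters' processing notes, the tools and build were hg38, bcl2fastq, Bowtie2, STAR and SICER 1.1 (roles not given). No source used here names the counting tool or strand setting. Transcripts were matched to symbols through the RefSeq table of GRCh38.p14. Of 88819 rows, 605 had no symbol (0.23% to 0.252% of counts) and were left out, and the row with the highest mean count stood for each of 28105 genes. CPM is the count per 1000000 gene counts of a library.

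The tests of counts used edgeR 4.0.16 under R 4.3.3 (filterByExpr, TMM, robust quasi-likelihood fit of 3 group means, two-sided). Benjamini-Hochberg adjusted p-values over 16368 genes, with a threshold of 0.05, were used for BAP1 KO against the mean of WT and control, against each, and for control against WT. The SE was derived from the F statistic. Beyond both means passing against WT and against control in 1 direction. Log2 levels used CPM + 1. A fold against 0 reads used a floor of 3 counts per library.

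Named genes were BAP1, the 12 largest rises and falls past the threshold (mean of at least 5 CPM, ranked by the smaller change against WT or control), up to 4 members per direction of each of 29 gene lists, the largest genes set aside and those at the rule's edge; the text names part of them. Members and lists were chosen with earlier results of these data known. The model was tested on simulated data. Alternatives were RLE, upper-quartile and no scaling, DESeq2 1.42.0, limma-voom 3.58.1, other filters and transcript rows, all 8 RNA-seq libraries, WT and control as 1 group, no robust step, a 1.5-fold test, a replicate block and leaving out each library. Counts of list members under these were added after seeing the data. Y-linked genes are not described. Some genes are not reported here.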

Additional observations from a re-analysis of the deposited data

How the results depend on the processing

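Of the genes called among the 206 followed through the alternatives, which leave out those at the rule's edge, 0 reversed direction. Only 65 of the 206 had the same outcome, passing or not, in every alternative. Among the 12 largest rises 10 kept their call everywhere, as did 10 of the 12 largest falls. Counts of calls depended on which library was left out, and moved in both directions. Leaving out each library gave 1162 to 7707 calls against the mean of WT and control (4897 with all), 500 to 3124 beyond both (1721), 2958 to 8555 for control against WT (6606), 23 to 40 interferon (37), 10 to 20 antigen presentation (14), 10 to 23 HOX (22), 9 to 19 epithelial junction (17) and 9 to 18 exocytosis genes (15), and 5737 to 7396 members (5579). A lone library left in a group is assumed to vary like the other groups. For members, leaving out a library loosens the rule itself, and every such count was above that with all libraries. A test against a 1.5-fold change called 841 genes against the mean, 390 beyond both, 2282 for control against WT, and 23 interferon, 6 antigen presentation, 10 HOX, 6 junction and 7 exocytosis genes. With WT and control as 1 group of 4 these were 310 against the mean and 4, 1, 6, 5 and 5 for the lists. The distance between WT and control enters the error there by construction. A gap of at least 1.5-fold left 1170 members. Library size alone moved the calls against the mean to 2970 higher and 1939 lower. DESeq2 called 5368 and limma-voom 5167.

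Replicate numbers do not pair the libraries: deviations of same-numbered libraries correlated at -0.009 (WT and control), -0.011 (WT and BAP1 KO) and 0.009 (control and BAP1 KO). With the replicate number as a block 4556 genes were called against the mean, 1543 beyond both and 6239 for control against WT, and 36 interferon, 15 antigen presentation, 20 HOX, 15 junction and 14 exocytosis genes.

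With 2 libraries a group, small differences and genes of few reads are weakly resolved, and intervals from reads cover counting error only.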

Other observations

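A few genes outside the lists, chosen after their values were seen, kept their call in every alternative and lay far beyond both unedited states. DST, a cytoskeletal linker of hemidesmosomes, was at 306 and 207 CPM in WT, 198 and 207 in control and 1568 and 1398 in BAP1 KO (log2 fold change 2.63 ± 0.13, adjusted p = 4.76e-05). MRC2, a collagen receptor, was at 22.8 and 14.9, 41.6 and 43.3, and 259.7 and 239.5 CPM in the same order (3.07 ± 0.13, adjusted p = 3.34e-05). PKIB, an inhibitor of protein kinase A, was at 19.3 and 15.9, 33.8 and 29.9, and 204 and 329 CPM (3.43 ± 0.19, adjusted p = 9.71e-05), and was low in MLL4 KO, at 5.42 and 5.14.

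Among falls, NFIA, a transcription factor, went from 25.1 and 28 CPM in WT and 11.5 and 13.9 in control to 1.1 and 1.14 in BAP1 KO (-4.11 ± 0.20, adjusted p = 4.76e-05). SYK, a tyrosine kinase of immune receptor signalling that epithelial cells also express, went from between 17.1 and 23.2 CPM to 1.53 and 1.32 (-3.96 ± 0.22, adjusted p = 6.82e-05). MGLL, the monoglyceride lipase, went from 16.6 and 22.4 CPM in WT and 39.5 and 38.5 in control to 1.33 and 1.71 (-4.27 ± 0.24, adjusted p = 6.13e-05), and was at 2.13 and 3.42 CPM in the MLL4 KO libraries.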
